A study of Homo sapiens with 6 samples.

Results

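The genes described here are 44 genes of G2/M, the mitotic spindle and the kinetochore, taken by symbol from a list of genes of these processes. The list rule uses no measured value, although earlier results of these data were known when it was drawn up. All 44 symbols matched 1 Ensembl identifier each among the 58243 identifiers in the count files. They were measured by 4sU-seq in A375 cells, an established human melanoma line, in 3 libraries of cells stably transfected with an empty vector (EV B1, B2 and B3) and 3 libraries of cells stably transfected with HA-tagged PRL3, the phosphatase encoded by PTP4A3 (PRL3 B9, B10 and B11). Cells of both groups were kept under hygromycin at 100 µg/ml and given a 20 min pulse of 500 µM 4-thiouridine, whose incorporation lets newly made RNA be biotinylated and pulled down. The labels do not say whether the 3 libraries of a group came from separate cultures, so the p-values measure the spread between libraries, which may be technical. Nor do the labels or methods say whether each stable line is a pool or 1 clone, so PRL3 expression and any other difference between the EV and PRL3 lines cannot be told apart. The question put to these genes was whether their newly made RNA differed between PRL3 and EV cells, as a sign of G2/M activity.

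Entry into mitosis is driven by CDK1 bound to B-type cyclins and switched on by CDC25 phosphatases. Aurora and Polo kinases build the spindle and correct the attachment of kinetochores to microtubules, and the spindle checkpoint holds back CDC20, the activator of the anaphase-promoting complex, until every chromosome is attached. Destruction of cyclin B and securin then starts anaphase, and central spindle proteins and anillin complete cytokinesis. In cycling cells many of these genes are transcribed together late in the cycle. Their promoters are known for an element called the CHR, which is read by the MuvB complexes with MYBL2 and FOXM1 in G2/M and with E2F4 and p130 in resting cells, and for CCAAT boxes bound by NF-Y.

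Promoter windows of 300 bases, from 250 bases before the start to 50 after it, were found in the RefSeq table of GRCh38.p14 for 36 of the 44 genes. AURKA, BIRC5, BUB3, TTK, UBE2C, KNL1, TPX2 and FOXM1 had no entry. On either strand, the CHR letters TTTGAA stood in 26 of the 36 windows (72.2%), against 15.4% of 27305 promoter windows of all genes. The longer form TTTGAAT stood in 12 (33.3%, against 3.95%). The CCAAT letters stood in 28 windows (77.8%, against 35.7%), and 22 windows held both (61.1%, against 6.08%). The 250 bases before the start are shown for 4 genes that moved in opposite directions, CCNB1 and CDC20 (lower in PRL3) and MKI67 and INCENP (higher in PRL3). CCAAT letters stand in all 4, and the letters TTTGAA stand in CDC20, MKI67 and INCENP, so in genes of either direction. Sequences run 5′ to 3′ on the gene's strand, with the CHR letters (TTTGAA, or TTCAAA when read on the other strand) and the CCAAT box (or ATTGG when read on the other strand) in capitals, and lie at chr5:69166900-69167149 (plus strand), chr1:43358731-43358980 (plus), chr10:128126424-128126673 (minus) and chr11:62123761-62124010 (plus).
CCNB1: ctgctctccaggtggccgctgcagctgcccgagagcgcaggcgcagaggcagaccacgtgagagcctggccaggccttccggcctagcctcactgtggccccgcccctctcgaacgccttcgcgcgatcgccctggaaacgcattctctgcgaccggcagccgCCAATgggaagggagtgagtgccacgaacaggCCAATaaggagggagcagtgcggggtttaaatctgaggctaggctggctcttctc
CDC20: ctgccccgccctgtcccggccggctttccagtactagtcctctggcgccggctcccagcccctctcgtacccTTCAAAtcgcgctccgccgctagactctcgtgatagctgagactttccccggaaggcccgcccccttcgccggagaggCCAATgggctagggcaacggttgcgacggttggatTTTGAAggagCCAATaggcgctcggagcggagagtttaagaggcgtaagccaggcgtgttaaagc
MKI67: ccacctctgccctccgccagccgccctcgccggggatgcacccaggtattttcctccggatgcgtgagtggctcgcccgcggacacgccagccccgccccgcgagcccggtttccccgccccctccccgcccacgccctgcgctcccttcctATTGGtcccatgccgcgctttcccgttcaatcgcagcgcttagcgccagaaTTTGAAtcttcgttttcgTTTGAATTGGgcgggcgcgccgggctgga
INCENP: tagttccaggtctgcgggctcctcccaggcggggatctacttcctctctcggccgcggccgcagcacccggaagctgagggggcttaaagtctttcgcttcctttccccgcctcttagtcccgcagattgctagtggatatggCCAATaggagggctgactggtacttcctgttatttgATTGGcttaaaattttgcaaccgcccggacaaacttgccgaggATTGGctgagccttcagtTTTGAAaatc

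The window of CCNB1 held 2 CCAAT boxes and no TTTGAA on either strand, and that of CDC20 held 2 of each. Only TTTGAA and TTTGAAT were searched, so the count does not show that CCNB1 lacks a CHR of other letters. In MKI67, 2 CHR matches stood beside 2 CCAAT boxes, with 1 match of each sharing a base, and INCENP had 1 CHR match and 3 CCAAT boxes. Among genes with a window, the CHR letters stood in 9 of the 13 that were lower in PRL3, in both of those that were higher and in 15 of the 21 that did not pass the test. A match is a description of letters in this window and not a site shown to be bound. By the later GENCODE annotation the window of CCNB1 includes 15 bases of its exon and that of INCENP 13.

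Between 36532207 and 57952035 reads per library fell on genes, and the 44 genes took from 282 to 54384 reads each in any library. PTP4A3 had 217 ± 59.4 normalized counts (SD, n = 3) in EV and 24387 ± 3796 (SD, n = 3) in PRL3, as the labels require. The melanoma and neural crest gene SOX10 was read at 22796 ± 4960 and 12613 ± 1788 normalized counts (SD, n = 3 each), while the pigment genes TYR and MLANA had at most 2 reads in any library. The summed normalized counts of leukocyte markers were 85 to 175 in EV and 120 to 143 in PRL3, those of fibroblast markers 388 to 502 and 317 to 348, and those of epithelial markers, nearly all from KRT14, 1100 to 1235 and 388 to 636. Their part in the results was not tested. The deposited counts cover exons only, and the share of uniquely aligned reads on no annotated exon was 33.3% ± 6.75 in EV and 66.3% ± 3.18 in PRL3 (SD, n = 3 each). The part of this share in the results below was not tested either.

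Of the 44 genes, 17 were lower in PRL3 (38.6%), 2 were higher (4.55%) and 25 did not pass the test (edgeR's quasi-likelihood test with TMM factors, Benjamini-Hochberg adjusted over 23884 genes, threshold 0.05). Among all genes tested, 22.7% were called lower and 20% higher, and among the 14443 protein-coding genes tested 31.6% were called lower and 15.2% higher. The share of mitosis genes called lower was thus nearer to that of protein-coding genes than to that of all genes. The PRL3 libraries were all below the EV libraries for 20 of the 44 genes, against 26.6% of all genes, and all above them for 2, against 29.7%. Of the 14443 protein-coding genes, 5307 lay below and 3201 above in this way. The counts come from bulk cultures, and reads on exons can include mature RNA carried over, a possibility the study's authors also raised. Fewer cells in G2/M, less of each RNA made per cell and a different share of mature RNA cannot be told apart.

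The median log2 fold change of the 44 genes, PRL3 over EV, was -0.30 (quartiles -0.76 and -0.03), but 0.20 with scaling by library size alone. Over all genes tested the median was 0.11, and over protein-coding genes it was -0.15. Scaling moved every gene together. The median of all genes was 0.60 with library size alone, 0.29 with upper quartiles, 0.07 with RLE factors and -0.37 with all uniquely aligned reads as the library size. Set against that shifting median, the median of the 44 genes differed by -0.41 as fitted, by -0.40 to -0.41 over these scalings, and by -0.14 when protein-coding genes alone were fitted. The likeness over scalings follows by construction and is no check of the difference. Without EV B1 the difference was -0.23, and with looser or stricter filters on low counts it was -0.53 and -0.30. The split into lower and higher calls was 17 and 2 as fitted, 8 and 10 with library size alone, and 30 and 0 with all uniquely aligned reads. For all genes the corresponding splits were 5426 and 4783, 3078 and 9514, and 8525 and 1912. CCNB1, CDC25B, BIRC5, CDC20, UBE2C, PTTG1, KIF2C and HMMR were called lower under all 16 alternatives tried, and no gene was called higher under all 16. All 8 had merged exons of 1286 to 3932 bases. In the 2 shortest ranges of exon length described below, 46.4% and 41.3% of protein-coding genes were called lower. No alternative took exon length into account.

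**Figure D1:**
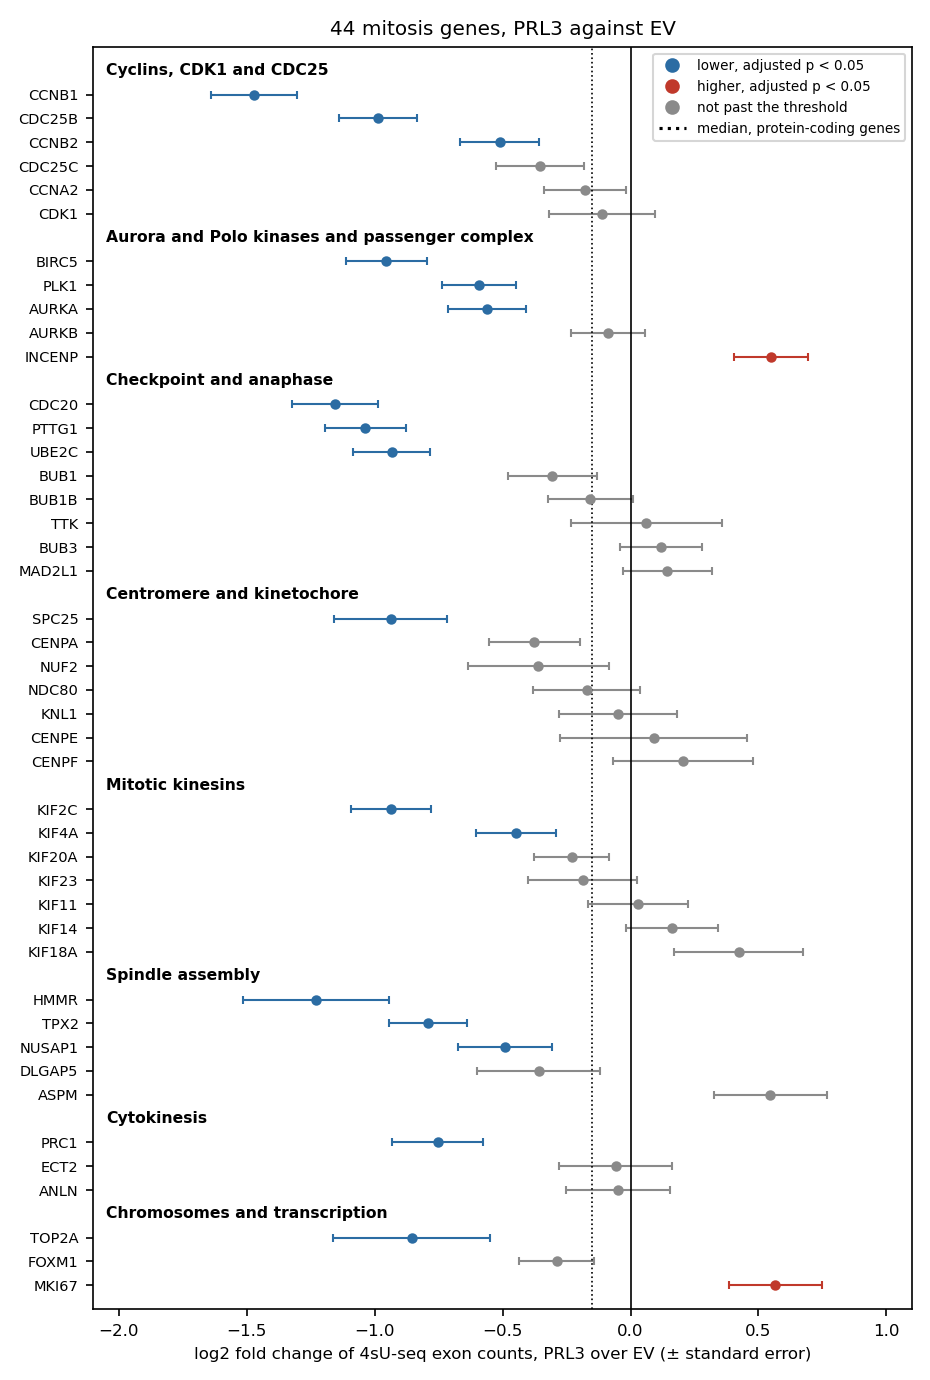
Log2 fold change of exon counts, PRL3 over EV, for the 44 mitosis genes grouped by role; points are edgeR estimates, bars are standard errors, colours show the call and the dotted line is the median of protein-coding genes (-0.15). The 17 genes called lower run from CCNB1 at -1.47 to KIF4A at -0.45 and the 2 called higher are INCENP and MKI67; with scaling by library size alone KIF4A and NUSAP1 lie at 0.05 and 0.02.

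Among the cyclins, CDK1 and the CDC25 phosphatases, 3 of 6 genes were lower and none higher. Beside this and each small role group below, 31.6% of protein-coding genes were called lower and 15.2% higher. CCNB1 encodes cyclin B1, the main partner of CDK1 at mitotic entry (ENSG00000134057, chromosome 5, 69167135 to 69178245, plus strand). Its normalized counts were 19260, 17370 and 14284 in EV and 5207, 6595 and 6548 in PRL3. The groups were far apart, with a log2 fold change of -1.47 (SE 0.17, adjusted p = 2.45e-05, 2.77-fold lower), the largest decrease among the 44 genes. CDC25B, a phosphatase that activates CDK1, read 9610, 12132 and 9946 in EV and 5341, 5808 and 4837 in PRL3 (log2 fold change -0.99, SE 0.15, adjusted p = 0.000232). Every PRL3 library was again below every EV library. CCNB2, which encodes cyclin B2, was lower by a smaller amount (log2 fold change -0.51, adjusted p = 0.0166) and kept its call in 9 of 16 alternatives. Without PRL3 B9, B10 or B11 its log2 fold change was -0.51, -0.49 or -0.51, with adjusted p of 0.0548, 0.0623 and 0.0655. With library size alone it was -0.012 (adjusted p = 0.954), with upper-quartile scaling -0.33 (0.0853) and among protein-coding genes alone -0.33 (0.0782).

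CDK1, the kinase itself, had 4795, 3067 and 3457 normalized counts in EV and 2670, 3403 and 4398 in PRL3. The groups overlapped (log2 fold change -0.11, SE 0.21, adjusted p = 0.696). CCNA2, cyclin A2, which acts in S phase and G2, read 6456, 4851 and 5141 in EV and 4216, 4899 and 5425 in PRL3, again with overlap (-0.18, SE 0.16, adjusted p = 0.407). CDC25C, the other phosphatase of the group, had a log2 fold change of -0.35 and an adjusted p of 0.114.

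The ratio of 2 genes within a library does not depend on scaling, and gave a view of unequal change within this set. It can still follow the trend with exon length described below. Merged exons measure 2433 bases in CCNB1, 2748 in CCNA2, 3909 in CDK1 and 12845 in MKI67. The part of exon length in the ratios was not tested. These ratios were chosen after the values had been seen. CCNB1 stood at 2.98, 3.58 and 2.78 times CCNA2 in the EV libraries and at 1.23, 1.35 and 1.21 times in the PRL3 libraries. The groups did not overlap (3.11 ± 0.417 against 1.26 ± 0.0738, SD, n = 3 each, two-sided exact permutation p = 0.1, the smallest that 3 libraries against 3 allow). Against CDK1 the ratio was 4.6 ± 0.92 in EV and 1.79 ± 0.263 in PRL3, and against MKI67 it was 0.581 ± 0.117 and 0.143 ± 0.0367 (SD, n = 3 each, exact permutation p = 0.1 each). Since CCNB1 was below EV and MKI67 above EV in every PRL3 library, their ratio had to separate, and its p adds nothing. In 6 such ratios computed, each p was 0.1, and adjusted over the 6 it was again 0.1. Alone of the 6, the ratio of AURKA to TPX2 was higher in PRL3, with 0.522 ± 0.00752 in EV and 0.613 ± 0.0184 in PRL3 (SD, n = 3 each).

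**Figure D2:**
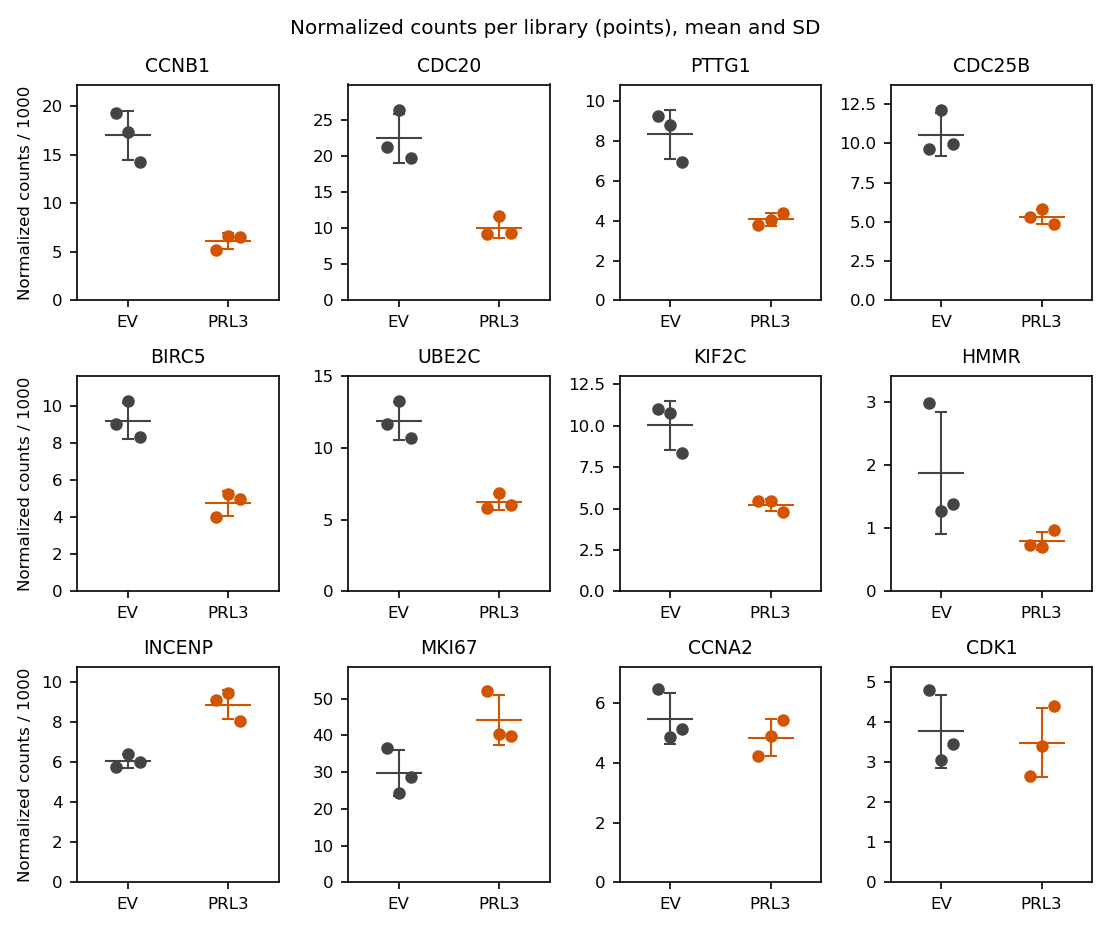
Normalized counts, divided by 1000, for 12 mitosis genes in the 3 EV and 3 PRL3 libraries (points), with the mean and SD; each panel starts at 0. The PRL3 libraries lie below all EV libraries in the upper 8 panels and above them for INCENP and MKI67, while for CCNA2 and CDK1 the groups overlap.

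In the group of Aurora and Polo kinases and the chromosomal passenger complex, 3 of 5 genes were lower and 1 was higher. BIRC5 encodes survivin, the passenger subunit that brings the complex to centromeres. It read 9022, 10290 and 8365 normalized counts in EV and 4014, 5274 and 4987 in PRL3 (log2 fold change -0.95, SE 0.16, adjusted p = 0.000359). INCENP, the scaffold of the same complex (ENSG00000149503), went the other way, with 5726, 6414 and 6007 in EV and 9064, 9452 and 8033 in PRL3 (0.55, SE 0.14, adjusted p = 0.00737). Each PRL3 library lay above each EV library, and the call held in 15 of 16 alternatives, being lost with all uniquely aligned reads as the library size (0.07, adjusted p = 0.774). The ratio of BIRC5 to INCENP within a library was 1.52 ± 0.115 in EV and 0.541 ± 0.0902 in PRL3 (SD, n = 3 each, exact permutation p = 0.1). Because each gene alone separated the groups, in opposite directions, this ratio had to separate them too, and its p adds nothing. AURKB, the kinase of the complex, had 7760, 8779 and 7761 in EV and 7374, 8351 and 7145 in PRL3, with overlapping groups (log2 fold change -0.09, SE 0.14, adjusted p = 0.659). Subunits of 1 complex thus had estimates on either side of 0.

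AURKA, the Aurora kinase of centrosomes and spindle poles, read 8595, 7286 and 6444 in EV and 5246, 5013 and 4866 in PRL3 (log2 fold change -0.56, SE 0.15, adjusted p = 0.00899). PLK1, the Polo kinase of mitotic entry and spindle assembly, read 11784, 13665 and 12491 in EV and 8364, 9072 and 7748 in PRL3 (-0.59, SE 0.14, adjusted p = 0.00512). Both were lower in every PRL3 library than in any EV library. Their calls were lost with scaling by library size alone, where the log2 fold changes were -0.06 and -0.10, and that of AURKA also without PRL3 B11 (-0.53, adjusted p = 0.0544).

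Of the 8 checkpoint and anaphase genes, CDC20, PTTG1 and UBE2C were lower and none was higher. CDC20 activates the anaphase-promoting complex (ENSG00000117399, chromosome 1, 43358981 to 43363203, plus strand). It had 21245, 26271 and 19741 normalized counts in EV and 9232, 11689 and 9300 in PRL3. No PRL3 library reached the EV range (log2 fold change -1.15, SE 0.17, adjusted p = 0.000134, 2.23-fold lower). PTTG1, securin, which the complex destroys at anaphase, had a log2 fold change of -1.04 (SE 0.16, adjusted p = 0.000185), and UBE2C, the ubiquitin-conjugating enzyme that works with the complex, one of -0.93 (SE 0.15, adjusted p = 0.000294).

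The checkpoint sensors did not pass the test. TTK, the kinase also known as MPS1, read 2132, 952 and 913 in EV and 1172, 1162 and 1838 in PRL3. EV B1 was the highest library and the groups overlapped (log2 fold change 0.06, SE 0.30, adjusted p = 0.885). BUB1, BUB1B, BUB3 and MAD2L1, which hold or form the checkpoint signal, had log2 fold changes of -0.31, -0.16, 0.12 and 0.14, with adjusted p from 0.175 to 0.579. Within a library, CDC20 stood at 1.85 ± 0.453 times BUB3 in EV and at 0.751 ± 0.0909 times in PRL3 (SD, n = 3 each, exact permutation p = 0.1).

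Among 7 centromere and kinetochore genes, only SPC25 passed the test. SPC25, a subunit of the NDC80 complex that binds microtubules, read 844, 623 and 622 in EV and 290, 360 and 441 in PRL3 (log2 fold change -0.94, SE 0.22, adjusted p = 0.00403). Its call was lost in 1 of 16 alternatives, scaling by library size alone (-0.44, adjusted p = 0.109). The other subunits measured, NDC80 and NUF2, had log2 fold changes of -0.17 and -0.36 with adjusted p of 0.546 and 0.319. KNL1, the kinetochore platform for BUB1, had 4023, 1956 and 2383 normalized counts in EV and 2678, 2313 and 3087 in PRL3. The groups overlapped (-0.05, SE 0.23, adjusted p = 0.881). CENPA, the centromeric histone H3 variant, had -0.38 (adjusted p = 0.104), and the large proteins CENPE and CENPF had 0.09 and 0.20 (adjusted p = 0.864 and 0.58).

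Among 7 mitotic kinesins, KIF2C and KIF4A were lower and none was higher. KIF2C, which depolymerizes microtubules at kinetochores, read 10982, 10789 and 8326 in EV and 5455, 5449 and 4818 in PRL3 (log2 fold change -0.94, SE 0.16, adjusted p = 0.00038). Every PRL3 library lay below the EV range. KIF4A, a chromosome-bound kinesin, had -0.45 (adjusted p = 0.0328), kept its call in 8 of 16 alternatives and turned to 0.05 with scaling by library size alone. Without EV B1 its value was -0.30 (adjusted p = 0.0885), and without PRL3 B9, B10 or B11 it was -0.42, -0.48 or -0.43 (adjusted p from 0.0673 to 0.121). KIF11, the kinesin that separates spindle poles, had 8702, 5059 and 5408 in EV and 6437, 6149 and 6988 in PRL3, a log2 fold change of 0.03 (SE 0.20, adjusted p = 0.916). KIF20A and KIF23, kinesins of the central spindle, had -0.23 and -0.19, and KIF14 and KIF18A had 0.16 and 0.42, with adjusted p from 0.199 to 0.514 over these 4.

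In the spindle assembly group, 3 of 5 genes were lower and none higher. TPX2, the activator of AURKA on the spindle, read 16549, 13730 and 12478 in EV and 8370, 8094 and 8222 in PRL3 (log2 fold change -0.79, SE 0.15, adjusted p = 0.00102). The PRL3 libraries were closely spaced and all below EV, but the call was lost with library size alone (-0.29, adjusted p = 0.0957). HMMR, a spindle pole and hyaluronan receptor protein, had the widest EV spread of the genes called under every alternative, with 2985, 1267 and 1377 in EV and 733, 699 and 968 in PRL3 (-1.23, SE 0.28, adjusted p = 0.0036). NUSAP1, which bundles spindle microtubules, had -0.49 (adjusted p = 0.0448) although its groups overlapped, and its call held in 8 of 16 alternatives and its value was 0.02 with library size alone. It was -0.29 (adjusted p = 0.174) without EV B1, -0.52 (0.0655) without EV B2, -0.40 (0.17) without PRL3 B10 and -0.46 (0.14) without PRL3 B11. DLGAP5, a spindle protein also called HURP, had 2872, 1348 and 1514 in EV and 1517, 1438 and 1512 in PRL3 (-0.36, SE 0.24, adjusted p = 0.249). ASPM, a spindle pole protein, had 0.55 and an adjusted p of 0.0597, with overlapping groups, and was called higher in 8 of 16 alternatives, among them without EV B1 (0.83, adjusted p = 0.00575).

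PRC1, the microtubule bundler of the central spindle, was the 1 cytokinesis gene of 3 that passed the test. It read 18200, 12676 and 11766 in EV and 8645, 8858 and 7788 in PRL3 (log2 fold change -0.75, SE 0.18, adjusted p = 0.00401), so that no PRL3 library reached the EV range. Its call was lost with library size alone (-0.25, adjusted p = 0.204). ANLN, the contractile ring scaffold anillin, had 14490, 8002 and 8547 in EV and 10102, 9674 and 10215 in PRL3, which overlapped (-0.05, SE 0.20, adjusted p = 0.867). ECT2, the exchange factor that activates RhoA at the cleavage site, had -0.06 (adjusted p = 0.854).

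MKI67, the gene of the proliferation marker Ki-67, which coats mitotic chromosomes, was higher in PRL3 (ENSG00000148773, chromosome 10, 128096659 to 128126423, minus strand). It read 36471, 24296 and 28537 in EV and 51961, 40469 and 39810 in PRL3. All PRL3 libraries lay above the EV range (log2 fold change 0.57, SE 0.18, adjusted p = 0.0235), and the call held in 12 of 16 alternatives. It was lost with all uniquely aligned reads as the library size (0.08, adjusted p = 0.779), without EV B2 (0.45, adjusted p = 0.0834), without PRL3 B9 (0.44, adjusted p = 0.109) and at a threshold of 0.01. TOP2A, the topoisomerase that untangles sister chromatids, read 28992, 10549 and 11273 in EV and 8732, 8876 and 10488 in PRL3. EV B1 alone was far above the others, and the lowest EV library was close to the highest PRL3 library. The log2 fold change was -0.85 (SE 0.31, adjusted p = 0.0379) with all libraries and -0.22 (adjusted p = 0.27) without EV B1. Without PRL3 B9, B10 or B11 it was -0.80, -0.81 or -0.93, with adjusted p from 0.0706 to 0.121. The call held in 6 of 16 alternatives, and was also lost with DESeq2 (-0.89, adjusted p = 0.153), limma-voom (-0.69, 0.0528), upper-quartile scaling (-0.65, 0.0773), protein-coding genes alone (-0.66, 0.0616), library size alone (-0.35, 0.324) and at a threshold of 0.01. FOXM1, the transcription factor of G2/M genes, had 9261, 10997 and 9470 in EV and 8677, 8121 and 7533 in PRL3. Its groups did not overlap, but it did not pass the test (-0.29, SE 0.15, adjusted p = 0.127).

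Compared per length, as normalized counts per kilobase of exon scaled to 1000000 reads, the highest level in EV was that of CDC20 (237 ± 36.1), followed by UBE2C (197 ± 21.7) and CCNB1 (148 ± 21.9, SD, n = 3 each). The ranges of CDC20 and UBE2C overlapped, but both were read in the same libraries and were not compared within them. In PRL3 these levels were 106 ± 14.8, 103 ± 8.78 and 53.4 ± 6.88. MKI67 went from 49.2 ± 10.2 to 72.9 ± 11.3, so that its level was below that of CCNB1 in EV and above it in PRL3. The lowest levels in EV were those of KIF18A (4.48 ± 1.94) and CENPE (4.9 ± 3.56), which overlapped.

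The EV library B1 stood apart for these genes. It was the highest EV library for 35 of the 44 (79.5%), against 35% of 19412 genes with at least 10 reads in each EV library and 40.6% of protein-coding genes. The median log2 ratio of EV B1 to the mean of EV B2 and B3 was 0.45 for the 44 genes and -0.03 for all genes. The ratio was 3.14-fold for CENPE, 2.66-fold for TOP2A, 2.29-fold for TTK, 2.26-fold for HMMR and 2.18-fold for CENPF. CDC20, CDC25B, PLK1, BIRC5, UBE2C, AURKB, INCENP, CENPA and FOXM1 were not highest in EV B1. The summed normalized counts of the 44 genes were 408361, 312864 and 298716 in EV and 278383, 272153 and 280594 in PRL3. The coefficient of variation was larger in EV than in PRL3 for 37 of the 44 genes, with medians of 19.6% and 9.26%. It was not computed over all genes, so the wider spread in EV cannot be called particular to mitosis genes.

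Without EV B1, 14 genes were lower and 6 were higher in PRL3, while 21.5% and 20.7% of the 25070 genes tested without that library were called lower and higher. TOP2A, KIF4A and NUSAP1 no longer passed the test (KIF4A -0.30, adjusted p = 0.0885, and NUSAP1 -0.29, adjusted p = 0.174). The genes that became called were CENPE (log2 fold change 0.87, adjusted p = 0.00598), CENPF (0.69, adjusted p = 0.0128), KIF18A (0.83, adjusted p = 0.00382) and ASPM (0.83, adjusted p = 0.00575), all higher, beside INCENP and MKI67. CCNB1 remained at -1.38 (adjusted p = 0.000101) and CDC20 at -1.20 (adjusted p = 0.00037), while HMMR moved from -1.23 to -0.72 (adjusted p = 0.00807). The number of genes with a log2 fold change below 0 was 33 with EV B1 and 24 without it.

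**Figure D3:**
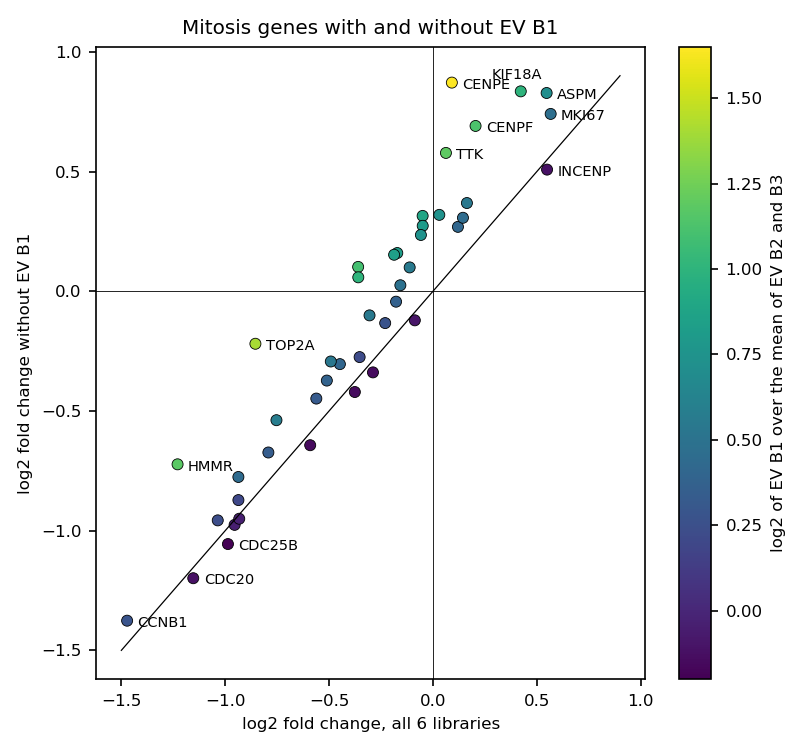
Log2 fold change, PRL3 over EV, of the 44 mitosis genes with all 6 libraries (x axis) and without EV B1 (y axis), coloured by the log2 ratio of EV B1 to the mean of EV B2 and B3; the diagonal marks equal values. CCNB1, CDC20 and CDC25B lie near the diagonal, and the genes most raised in EV B1, such as CENPE (0.09 and 0.87) and TOP2A (-0.85 and -0.22), lie farthest above it.

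The log2 fold changes of the 44 genes followed the length of their exons. Merged exon length ran from 1286 bases for UBE2C to 12845 bases for MKI67, and Spearman's rho with the log2 fold change was 0.626 over the 44 genes and 0.283 over 14443 protein-coding genes (a description over genes of the same libraries). Among the 11 genes with the shortest exons, 1286 to 3329 bases, 7 were lower, and their median was -0.56. Between 3362 and 3932 bases 6 of 11 were lower, with a median of -0.49. Between 4454 and 5523 bases 3 of 11 were lower and 1 higher (median -0.06), and between 5997 and 12845 bases 1 was lower and 1 higher (median 0.09). With scaling by library size alone every gene was shifted up by about the same amount (CCNB1 by 0.49), which leaves this order and moves the sign.

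Protein-coding genes in the same 4 ranges of exon length had medians of -0.59, -0.44, -0.19 and 0.03, and 46.4%, 41.3%, 33.4% and 22.8% of them were called lower. The medians of the mitosis genes rose with exon length in the same order. CCNB1 at 2433 bases and HMMR at 3932 bases were well below the medians of their ranges, as was TOP2A at 6374 bases with EV B1 included. CDC20 at 2012 bases (-1.15), PTTG1 at 1975 bases (-1.04) and CDC25B at 3903 bases (-0.99) also lay well below. INCENP at 4454 bases (0.55), ASPM at 11994 bases (0.55) and MKI67 at 12845 bases (0.57) were above the medians of their ranges. These genes are examples, and others lay on either side.

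**Figure D4:**
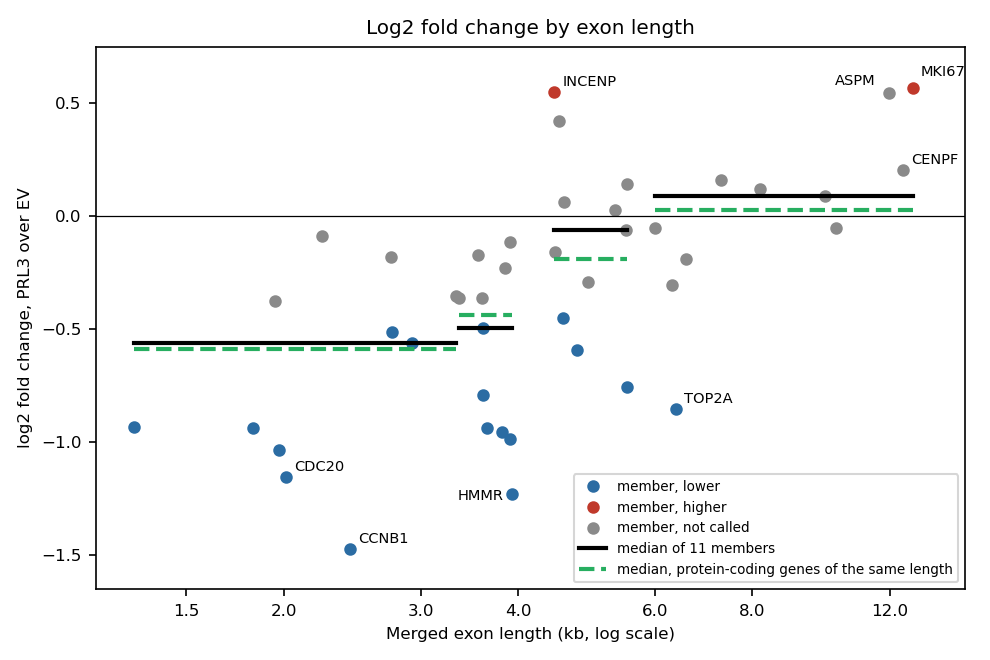
Log2 fold change, PRL3 over EV, against merged exon length in kilobases (log axis) for the 44 mitosis genes, with the median of each successive set of 11 genes (black) and of protein-coding genes in the same length range (green, dashed). The medians of the mitosis genes rise from -0.56 to 0.09 and those of protein-coding genes from -0.59 to 0.03; with scaling by library size alone all values move up together.

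Some genes are annotated inside the introns of mitosis genes, on the same strand and sharing no exon bases with them, and their counts come from reads in those introns. The pseudogene SEPTIN14P12 lies inside ASPM (chromosome 1, 197138748 to 197139307, minus strand). It read 202, 117 and 179 normalized counts in EV and 1358, 1255 and 1424 in PRL3, a log2 fold change of 3.02 (SE 0.22, adjusted p = 4.88e-06), against 0.55 for the exons of ASPM. A Y RNA annotation inside TOP2A (chromosome 17, 40391232 to 40391338, minus strand) read 13.4, 21.7 and 26.4 in EV and 99.9, 83.3 and 126 in PRL3 (2.32, SE 0.45, adjusted p = 0.00116), while the exons of TOP2A were lower. The long noncoding genes ENSG00000259254 inside KNL1 and ENSG00000259396 inside NUSAP1 had log2 fold changes of 2.74 (SE 0.69, adjusted p = 0.00626) and 1.59 (SE 0.59, adjusted p = 0.0454). A Y RNA annotation inside PRC1 had 4, 0 and 3 reads in EV and 28, 15 and 23 in PRL3. In all 5, every PRL3 library lay above every EV library, as in 29.7% of all genes tested. Genes inside the introns of other genes were not read for comparison. A further annotation, RNY4P23 inside KIF4A, had too few reads to be tested. Reads in an intron of the host gene and reads of the inner gene cannot be told apart in these counts, and the part of the higher share of reads outside exons in PRL3 was not tested.

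**Figure D5:**
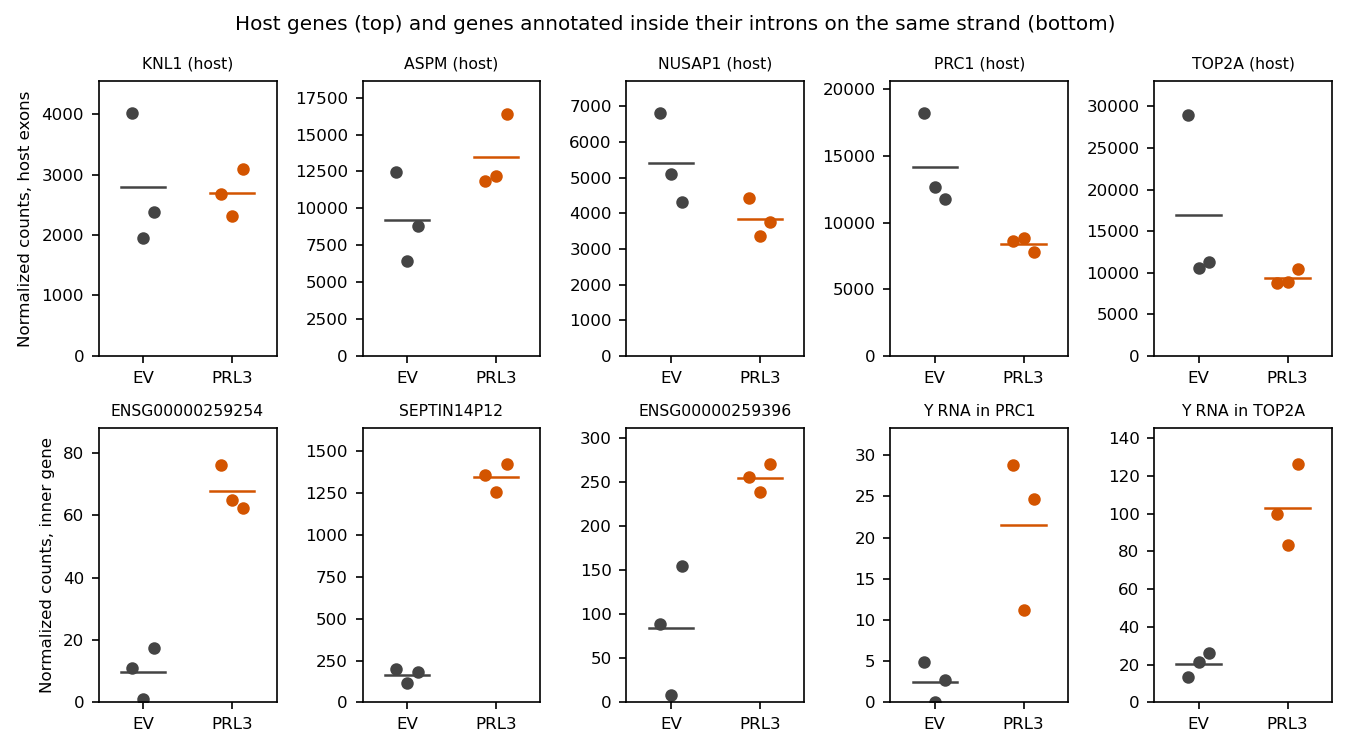
Normalized counts of the exons of KNL1, ASPM, NUSAP1, PRC1 and TOP2A (top) and of the gene annotated inside an intron of each on the same strand (bottom) in the 3 EV and 3 PRL3 libraries, with means as lines and each panel starting at 0. The inner genes lie higher in every PRL3 library, as SEPTIN14P12 at 1255 to 1424 against 117 to 202, while of the host genes NUSAP1, PRC1 and TOP2A were called lower.

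Beyond the 44, lists of 116 further mitosis genes were read in the same way, and 38 were lower (32.8%) and 13 higher (11.2%), beside 31.6% and 15.2% of protein-coding genes, with a median of -0.18 that turned to 0.32 with library size alone and to 0.01 with upper-quartile scaling. The counts with library size alone were 17 and 42, and the number called higher was 21 without EV B1, 7 without PRL3 B9 and 6 without PRL3 B11. The anaphase-promoting complex and its partners had 12 of 19 lower (63.2%) and 2 higher (10.5%), with a median of -0.55 that stayed below 0 under each scaling (-0.06 with library size alone, where 6 were lower and 3 higher). They included ANAPC11, the catalytic RING subunit (-1.76, SE 0.21, adjusted p = 3.14e-05), UBE2S, its chain-extending enzyme (-1.54, SE 0.20, adjusted p = 6.36e-05), FZR1, the activator CDH1 (-1.30, SE 0.17, adjusted p = 6.55e-05) and ANAPC5 (-0.92, SE 0.14, adjusted p = 0.000234). FBXO5, the inhibitor EMI1, was higher (0.93, SE 0.20, adjusted p = 0.00196), as was ANAPC10 (0.47, adjusted p = 0.0497), whose value was -0.02 with all uniquely aligned reads as the library size. Only 1 was called higher without EV B2, EV B3 or any 1 of the PRL3 libraries.

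Of 30 other kinetochore and centromere genes, 10 were lower (33.3%) and 4 higher (13.3%), beside 31.6% and 15.2% of protein-coding genes. With library size alone 4 were lower and 11 higher, with all uniquely aligned reads 18 and 1, and 2 were higher without PRL3 B9 and 1 without PRL3 B11. SPC24, the partner of SPC25, was lower by a like amount (-1.06, SE 0.17, adjusted p = 0.000268), as were CENPW (-1.12, adjusted p = 0.000271) and CENPT (-0.95, adjusted p = 0.000304), which belong to the same histone-fold complex. CENPL was higher (1.08, SE 0.16, adjusted p = 0.000185), as were CENPC (0.75), CENPK (0.66) and HJURP (0.44, and -0.04 with all uniquely aligned reads). Among 22 genes of the passenger complex, other kinases and mitotic entry, 6 were lower (27.3%) and 4 higher (18.2%), but 1 and 10 with library size alone, 13 and 0 with all uniquely aligned reads, and 2 were higher without PRL3 B9, B10 or B11. CKS1B, which binds CDK1, had -0.78 (adjusted p = 0.000872) and CDK7, which activates it, -1.10 (adjusted p = 0.000886). HASPIN, the histone H3 kinase that recruits the passenger complex, had 0.80 (adjusted p = 0.00108) and WEE1, which inhibits CDK1, had 0.87 (adjusted p = 0.0028).

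Of 20 cohesin and condensin genes, 2 were lower (10%) and 1 higher (5%), beside 31.6% and 15.2% of protein-coding genes. NCAPH2 (-1.30, adjusted p = 5.48e-05) and CDCA5, sororin (-0.70, adjusted p = 0.00173), were lower, and SMC4 was higher (1.03, adjusted p = 0.002). Scaled by library size alone, 1 was lower and 6 higher, with all uniquely aligned reads 13 and 0, and 3 were higher without EV B1. Among 25 other spindle and cytokinesis genes, 8 were lower (32%) and 2 higher (8%), beside the same 31.6% and 15.2%. Scaled by library size alone, 5 were lower and 12 higher, and with all uniquely aligned reads 15 and 0. Without PRL3 B9 or B11 5 were lower, 6 were higher without EV B1, and 1 was higher without EV B2, EV B3, PRL3 B9 or PRL3 B11. TUBG1, gamma-tubulin, had the smallest p of them (-1.45, SE 0.16, adjusted p = 1.84e-05), followed by KIF22 (-1.08), SPAG5 (-0.96) and RACGAP1, the partner of ECT2 (-0.86). CIT, the citron kinase of the midbody, was higher (0.77, adjusted p = 0.00116), as was CKAP2L (0.57, adjusted p = 0.0431).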

How the data were processed

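4sU-seq of 6 A375 libraries (3 EV, 3 PRL3) was analysed. The authors aligned reads to GRCh38 with STAR 2.5.1b and counted exonic reads per Ensembl 91 gene with htseq-count 0.6.1 (reverse strand), per the labels and the study's methods. The deposited values are raw counts. Reads on no exon, ambiguous or aligned to several places are listed apart and stayed out of tests. Between 36532207 and 57952035 reads per library fell on genes, which limits precision for counting error only. Libraries of a group differed beyond sampling noise (chi-square of 24.7 or more, averaged over genes).

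Symbols, exon lengths and positions came from GENCODE 44 (57532 of 58243 identifiers matched). The test of PRL3 against EV used edgeR 4.0.16 in R 4.3.3 (TMM scaling, filterByExpr by group, quasi-likelihood test, Benjamini-Hochberg over 23884 genes, threshold 0.05). To normalize counts, each was divided by its library's effective size and multiplied by the mean of these sizes. The procedure was tested on simulated counts with few genes changed, as many raised as lowered. The simulation held no difference between groups in reads outside exons, so it does not cover that feature of these libraries. For single genes the exact two-sided permutation test cannot go below 0.1. Alternatives were other scalings, DESeq2 1.42.0, limma-voom 3.58.1, other filters, a threshold of 0.01, protein-coding genes alone, and leaving out each library.

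The 44 genes and the other lists were chosen with earlier results of these data known. Values per library are given for CCNB1, CDK1, PLK1, AURKA, TOP2A, MKI67, FOXM1 and CCNA2 and, per role, for the gene with the smallest p and that nearest 0. INCENP, HMMR and CDC25B, the within-library ratios and the genes inside introns were added after values were seen. In other lists up to 4 called genes with the smallest p and those against the list's direction are named. Promoters came from RefSeq, using the first listed start.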

Additional observations from a re-analysis of the deposited data

Results flagged for a closer look

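The count files also list reads that no comparison of exon counts uses. Uniquely aligned reads on no annotated exon made up 66.3% ± 3.18 (SD, n = 3) of those of the PRL3 libraries, above the 33.3% ± 6.75 (SD, n = 3) of the EV control libraries, and the groups did not overlap. The part of this difference in the fold changes of the mitosis genes was not tested.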

How the results depend on the processing

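No paired analysis was possible because the EV and PRL3 libraries share no replicate numbers. Of 1070 values compared under the alternatives, 829 kept their direction and their side of the threshold or stayed close to the reported value. Closeness of a count was judged loosely: 12 of the 44 genes called lower without PRL3 B11, against 17 as fitted, counted as close. At the threshold of 0.01 the reported fit was reused, so direction was kept by construction. The cause of the changes in the remaining values was not tested, apart from scaling, which by construction moves all genes together. With library size alone, 8 of the 44 genes were lower and 10 higher (3078 and 9514 of all genes), and the median of the 44 was 0.20. The log2 fold changes that turned above 0 were CCNA2 0.31, CDK1 0.38, CDC25C 0.15, AURKB 0.40, BUB1 0.20, BUB1B 0.34, CENPA 0.12, NDC80 0.33, NUF2 0.14, KNL1 0.45, KIF20A 0.26, KIF23 0.31, KIF4A 0.048, DLGAP5 0.14, NUSAP1 0.017, ANLN 0.45, ECT2 0.44 and FOXM1 0.21. With all uniquely aligned reads as the library size, 30 were lower and 0 higher (8525 and 1912 of all genes), with medians of -0.78 for the 44 and -0.37 for all genes, and BUB3 -0.36, MAD2L1 -0.34, TTK -0.43, CENPE -0.40, CENPF -0.28, KIF11 -0.46, KIF14 -0.32 and KIF18A -0.070 turned below 0. Upper-quartile scaling gave a median of -0.11, with CCNA2 0.0057, CDK1 0.073, AURKB 0.089, BUB1B 0.031, NDC80 0.023, KNL1 0.15, KIF23 0.0063, ANLN 0.14 and ECT2 0.13. Protein-coding genes alone gave 4 higher and a median of -0.11, with CCNA2 0.0048, CDK1 0.071, AURKB 0.093, BUB1B 0.028, NDC80 0.015, KNL1 0.14, ANLN 0.14 and ECT2 0.13. KIF11 was -0.0056 with RLE scaling and -0.0057 with DESeq2, and with limma-voom KNL1 was 0.0081 and ANLN 0.0047. At an adjusted p of 0.01, 1 gene of the 44 and 2719 of all genes were higher.

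Leaving out each library in turn gave 12 to 17 genes lower and 1 to 6 higher (6 without EV B1, 1 without EV B2 and 1 without PRL3 B9), with a median from -0.36 to -0.11. Log2 fold changes that crossed 0 ran from -0.30 to 0.10 for CDK1, -0.25 to 0.025 for BUB1B, -0.18 to 0.58 for TTK, -0.23 to 0.87 for CENPE, -0.053 to 0.69 for CENPF, -0.33 to 0.16 for NDC80, -0.59 to 0.10 for NUF2, -0.24 to 0.31 for KNL1, -0.10 to 0.32 for KIF11, -0.36 to 0.15 for KIF23, -0.54 to 0.058 for DLGAP5, -0.19 to 0.27 for ANLN and -0.25 to 0.23 for ECT2. With 3 libraries a group, small changes can be missed, and all 44 genes had at least 100 reads in every library.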

Other observations

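Outside mitosis, regulators that read the CHR and CCAAT elements and genes of the G1/S step were measured in the same libraries. Of 15 subunits of the DREAM, MuvB and NF-Y complexes and their partners, 5 were lower (33.3%) and 3 higher (20%) in PRL3, beside 31.6% and 15.2% of protein-coding genes. With library size alone 2 were lower and 6 higher, and with all uniquely aligned reads as the library size 9 and 0. E2F4, the repressor E2F of DREAM (log2 fold change -0.995, SE 0.16, adjusted p = 0.000228), its partner TFDP1 (-0.87, adjusted p = 0.00056), the activator MYBL2 (-0.84, adjusted p = 0.000678), RBL2, which encodes p130 (-0.78, adjusted p = 0.00324), and E2F5 (-0.79, adjusted p = 0.0112) were lower. The CHR-binding subunit LIN54 was higher (0.60, adjusted p = 0.0128), as were RBL1 (0.43) and NFYC (0.41), whose values were -0.05 and -0.07 with all uniquely aligned reads as the library size. The number called higher was 1 without PRL3 B9, 0 without PRL3 B10 and 1 without PRL3 B11.

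Of 20 G1 and G1/S genes tested, 6 were lower (30%) and 8 higher (40%), beside 31.6% and 15.2% of protein-coding genes. With library size alone 4 were lower and 11 higher, and with all uniquely aligned reads 11 and 3. CDK4, the kinase of D-type cyclins, had the smallest p (-1.60, SE 0.17, adjusted p = 1.76e-05), and its relative CDK6 moved the other way (0.97, SE 0.16, adjusted p = 0.000285). E2F1 was lower (-1.34, SE 0.16, adjusted p = 3.25e-05), while the repressor E2Fs E2F8 (1.34, SE 0.16, adjusted p = 3.14e-05) and E2F7 (0.99, SE 0.17, adjusted p = 0.000534) were higher. CCNE1 (-0.85, adjusted p = 0.00587) and CCNE2 (0.61, adjusted p = 0.0479), the E-type cyclins, had opposite signs. Among CDK inhibitors, CDKN1A, which encodes p21, was lower (-0.86, adjusted p = 0.000801), and CDKN1B (0.66, adjusted p = 0.00838) and CDKN2A (0.89, adjusted p = 0.0191) were higher. The number called higher was 5 without PRL3 B9 and 5 without PRL3 B10, and CCND2 was not tested for low counts.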
